A study of Mus musculus with 17 samples.

Results

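The liver is built mostly of hepatocytes, and the genes described here mark the cells that lie between and around them: sinusoidal endothelial cells, Kupffer cells, hepatic stellate cells, bile duct cells and lymphocytes. A list of 37 such marker genes was matched to the probe sets of a mouse expression array through the array annotation, and 36 of them had a probe set that names the gene alone, out of 18194 genes with such a probe set. The 36 are 10 endothelial, 7 Kupffer cell, 11 stellate cell, 4 biliary and 4 lymphoid markers. Spp1, a biliary marker, was not matched and was not analysed here.

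Whole-liver RNA was hybridised to 17 arrays, with 5 from wild type mice given corn oil, 6 from wild type mice given TCDD, 3 from knockout mice given corn oil and 3 from knockout mice given TCDD. All mice were male on a C57BL/6J background, and TCDD was given once by gavage at 1000 µg/kg with the liver taken after 19 h. The knockout mice lacked the aryl hydrocarbon receptor (Ahr-/-), were 10 weeks of age and had been bought from a commercial supplier. The wild type mice (Ahr+/+) were 15 weeks old and bred at another institute, so genotype, age and source cannot be told apart in any difference between knockout and wild type. The deletion is carried in the germline, so the knockout does not separate an effect in one cell type from an effect in another. The labels number the replicates without saying that each array held a different mouse, so the p-values reflect the spread between these samples only, and that spread may be technical.

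TCDD is a dioxin that binds the aryl hydrocarbon receptor (AHR). The receptor then enters the nucleus, pairs with ARNT and binds DNA at sites with a short core sequence, raising genes such as Cyp1a1. Sinusoidal endothelial cells clear proteins and hyaluronan from blood through scavenger receptors, Kupffer cells are the resident macrophages of the sinusoid, and stellate cells store vitamin A and make collagen when activated. In RNA of whole liver, fewer cells of a type and less RNA per cell cannot be told apart.

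There were 2 arrays that stood apart. The array of TCDD-treated wild type replicate 6 had a residual standard deviation over probe sets of 0.319 against 0.124 to 0.173 on the other arrays, and its Gapdh signal was 1.98 log2 units higher at the 3′ end than at the 5′ end, against -0.165 to -0.0112 elsewhere. The library labelled knockout TCDD replicate 1 had a Cyp1a1 level of 12.64 on the log2 scale, where the other knockout TCDD arrays read 5.32 and 5.34, and its Cyp1a2 level was 13.27 against their 11.69 and 11.20. Its Cyp1b1 and Ahrr levels, 3.40 and 2.40, were like theirs. The Ahr probe set itself did not separate the genotypes with corn oil (9.52 to 10.34 in wild type, 9.29 to 9.70 in knockout), and the labels do not say which stretch of the transcript it reads. Results that rest on these arrays are given with and without them. The arrays were scanned on 3 days that are unevenly spread over the groups, and day 2, the only one with arrays of all 4 groups, holds 3 and 4 wild type and 1 and 2 knockout arrays with corn oil and TCDD.

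Every level below is a deposited log2 value, so a difference of 1 is a factor of 2, and levels of different genes are not set against each other because each probe set binds with its own efficiency. The words rose and fell are kept for genes whose test with limma passed a Benjamini-Hochberg adjusted p of 0.05 over all 45037 gene probe sets, and "called" means the same. Most markers, 30 of 36, read above the array's median on all 17 arrays, though that median is not the floor of each probe set. The 6 that read at or below the median of every array were the stellate genes Des and Timp1, the bile duct keratins Krt19 and Krt7, the T cell gene Cd3e and the B cell gene Cd79a. These 6 are near background, and a change in them could have been missed. Some markers above the median read a nearly constant value in a group. Marco read 4.78 on each knockout corn oil array, Acta2 6.81 to 6.83 on the same arrays, and Cdh5 7.02 to 7.05 in wild type with corn oil. A change in such markers could have been missed too. By the array median, the endothelial and Kupffer lists had no member near background, the stellate list had 2 of 11, and the biliary and lymphoid lists had 2 of 4 each.

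**Figure D1:**
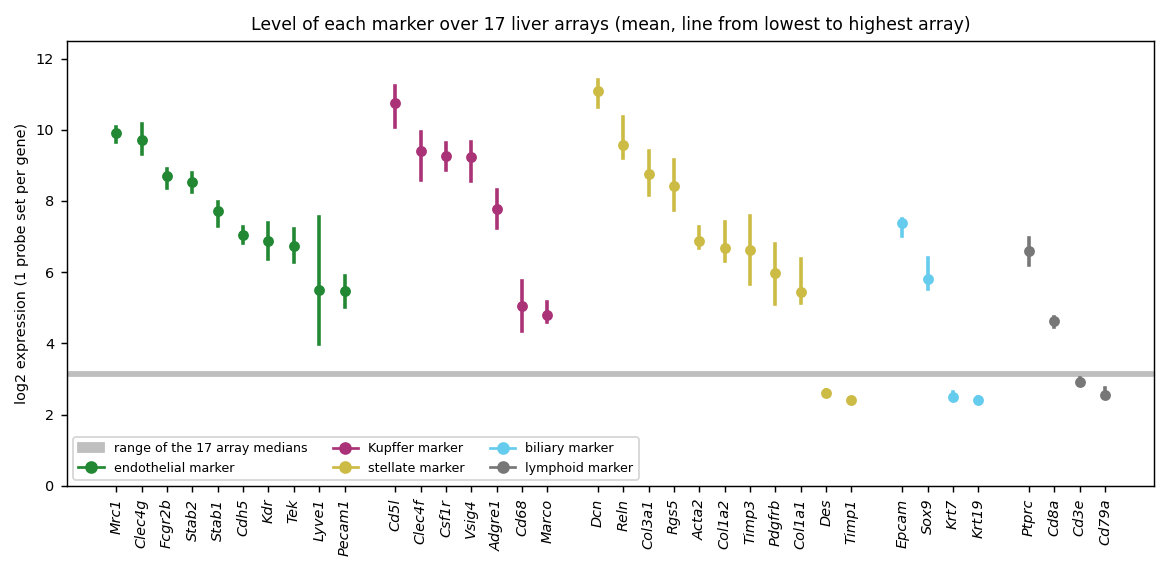
Level (log2, y axis) of each of the 36 markers (x axis, by class), with a point at the mean of all 17 arrays, a line from the lowest to the highest array, and a grey band for the range of the array medians, 3.08 to 3.19. The 6 markers near background lie at or below the band, and the lines are longest for Lyve1 and Timp3.

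For TCDD in wild type liver 5 of the 36 markers were called, where 6.32% of all 18194 genes were called. Of these 4 fell, where 2.56% of all genes fell, and 1 rose, where 3.75% of all genes rose. The 18194 include genes of low level, whereas most markers read above the array median. A filter on low level kept 11569 genes, of which 13% were called, and then 1 marker rose and 5 fell. With any 1 array left out, 4 to 6 markers were called. The genes that fell were Clec4g, Stab1 and Stab2 of endothelial cells and Rgs5 of stellate cells and pericytes, and the gene that rose was Timp3. The median difference over the 36 was -0.023, with -0.148 for the endothelial, -0.101 for the Kupffer, -0.026 for the stellate, 0.015 for the biliary and 0.008 for the lymphoid markers, against 0.009 for all genes. These markers had 15 other probe sets above the median on all arrays, and 7 of them shared the sign of the one used. The small medians thus depend on the probe sets used. In knockout liver TCDD called 0 of 36 with limma, where 0.011% of all genes were called, and 4 were at an unadjusted p under 0.05, as were 3.28% of all genes. The knockout groups of 3 arrays each did not overlap for 9 markers, where 38.5% of all genes showed no overlap, and the wild type groups for 5, where 5.86% did. The difference between the TCDD effects of the genotypes was called for 1 marker, Timp3, where 1.63% of all genes were called.

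Between genotypes, 2 of 36 markers were called with corn oil, where 2.34% of all genes were called, and both were higher in knockout, as were 1.4% of all genes. The genotypes did not overlap for 4 markers with corn oil, where 8.28% of all genes showed no overlap, and for 11 with TCDD, where 14.9% did. With TCDD in both genotypes, 11 of 36 were called, where 8.98% of all genes were called: 8 were higher in knockout, against 4.57% of all genes, and 3 were lower, against 4.41%. After the filter on low level 17.9% of the genes kept were called, with 9 markers higher in knockout and 3 lower. The comparisons share arrays, so the TCDD effect in wild type and the genotype difference with TCDD are not independent of each other. Without knockout TCDD replicate 1 the count of 11 became 7, without knockout TCDD replicate 3 it was 5, and without both arrays that stood apart it was 8. Within scan day 2, which holds 2 knockout and 4 wild type arrays given TCDD, 3 of the 11 calls were made again, those of Lyve1, Rgs5 and Col1a2, and 8 were not: the adjusted p was 0.0605 for Reln, 0.08 for Col3a1, 0.106 for Kdr, 0.116 for Stab2, 0.14 for Timp3, 0.259 for Col1a1, 0.348 for Ptprc and 0.361 for Pdgfrb. With the probe sets of a gene averaged, 7 of the 11 differences shrank by over 1.5 times, to 0.24 for Col1a2, 0.30 for Col1a1, 0.45 for Col3a1, 0.53 for Pdgfrb, -0.31 for Reln, 0.18 for Ptprc and -0.43 for Timp3, of which that of Timp3 lost its call (adjusted p = 0.0523). In all, 13 markers were called in at least 1 of the 5 comparisons, which share arrays. The share of all genes called in at least 1 of them was not counted, so the 13 cannot be set against it.

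**Figure D2:**
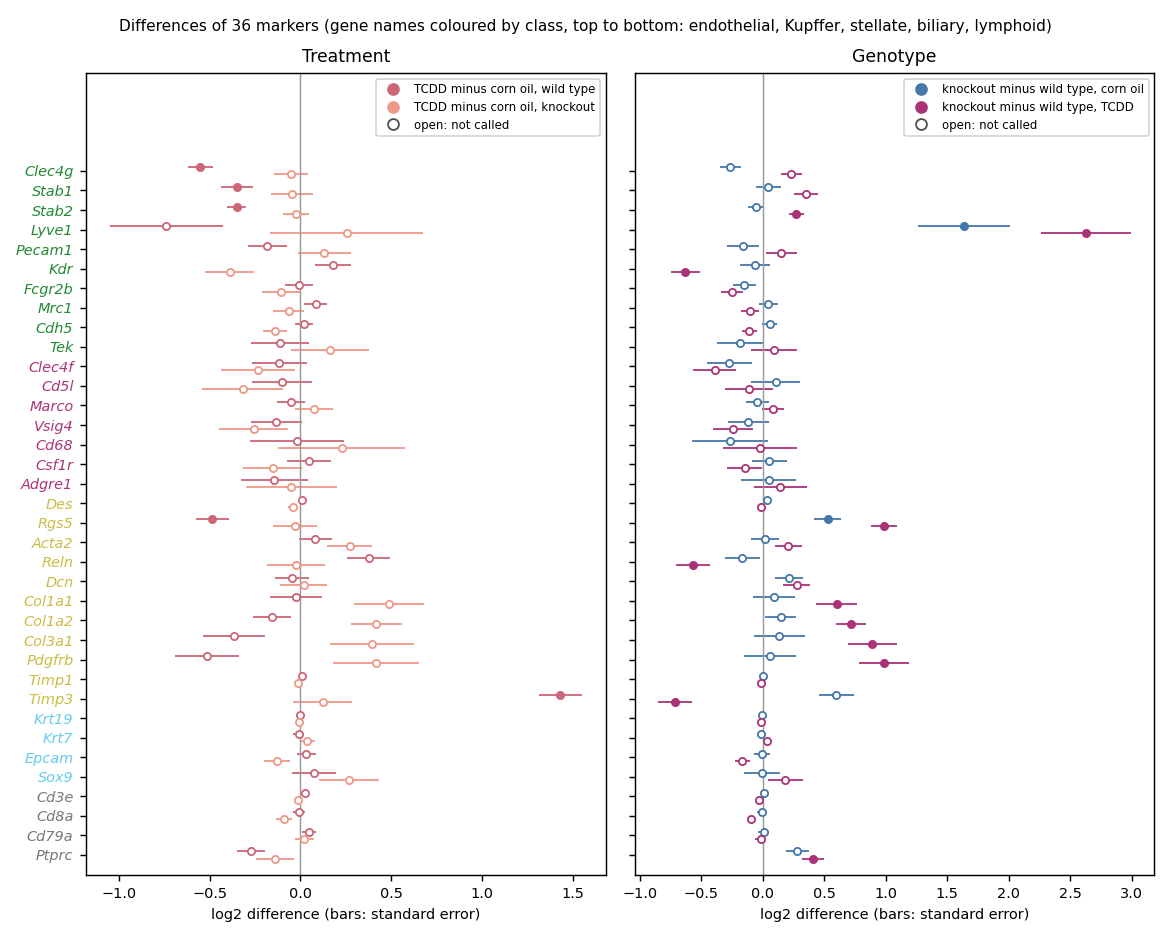
Differences (log2, x axis) of the 36 markers (rows) for TCDD in wild type, TCDD in knockout and knockout against wild type with each treatment, with bars for 1 standard error and filled points for called differences. Timp3 stands alone on the right for TCDD in wild type at 1.43, and Lyve1 lies farthest right between genotypes at 1.64 with corn oil and 2.63 with TCDD.

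The endothelial markers that fell with TCDD in wild type encode receptors at the surface of sinusoidal endothelial cells. Clec4g, a C-type lectin also known as LSECtin, read 10.04, 9.96, 10.15, 10.09 and 9.80 in the wild type corn oil arrays, and ran from 9.32 through a median of 9.45 to 9.61 in the 6 wild type TCDD arrays. Every treated array lay below every control array. In knockout liver it read 9.79, 9.58 and 9.85 with corn oil and 9.73, 9.75 and 9.59 with TCDD, and these groups overlapped. TCDD lowered Clec4g by 1.46-fold in wild type (difference -0.55, SE 0.07, limma adjusted p = 2.54e-04), and in knockout the difference was -0.05 with a 95% confidence interval of -0.26 to 0.15. The difference between those effects, 0.50, had an adjusted p of 0.0671 and was not called. It was called without wild type TCDD replicate 6, which stood apart (0.53, adjusted p = 0.0464), without wild type corn oil replicate 5 (0.55, 0.0284), with median centring (0.0423), scan day as a block (0.0471), array weights (0.0155) and the filter on low level (0.0369), and not without both arrays that stood apart (0.51, 0.0985), so this call rests on the setting. The other Clec4g probe set, with a mean level of 2.46, gave 0.01 with TCDD in wild type, and the mean of both gave -0.27 (1.21-fold, limma adjusted p = 3.61e-04).

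Stab2 and Stab1 encode stabilins, scavenger receptors that take up hyaluronan and other ligands from blood. Stab2 read 8.72, 8.59, 8.78, 8.61 and 8.68 with corn oil and 8.24 to 8.44, with a median of 8.30, with TCDD in wild type, and the groups did not overlap. In knockout it read 8.78, 8.53 and 8.55 with corn oil and 8.52, 8.61 and 8.65 with TCDD, with overlap. Stab2 fell by 1.28-fold in wild type (-0.35, SE 0.05, limma adjusted p = 0.00111). Stab1 read 7.77, 7.77, 7.94, 7.98 and 7.65 with corn oil and 7.31 to 7.71, with a median of 7.44, with TCDD in wild type. The treated array at 7.71, replicate 1, lay above the lowest control, so these groups overlapped. Stab1 fell by 1.27-fold (-0.35, SE 0.09, limma adjusted p = 0.0329), and this call was lost without any 1 of 8 of the 17 arrays. Its knockout arrays read 7.97, 7.88 and 7.75 with corn oil and 7.67, 7.93 and 7.87 with TCDD. The difference of the TCDD effects was 0.33 for Stab2 (adjusted p = 0.138) and 0.30 for Stab1 (adjusted p = 0.631), and neither was called. With TCDD in both genotypes Stab2 was higher in knockout by 0.27 (limma adjusted p = 0.0168), a call that was lost without knockout TCDD replicate 2 and without replicate 3. Stab1 was higher by 0.35 in the same comparison and was not called, though 8 of the alternatives called it. Within scan day 2, which holds 3 corn oil and 4 TCDD arrays of wild type, the TCDD differences of Clec4g, Stab2 and Stab1 were -0.56, -0.37 and -0.50, the first and second of which were called.

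**Figure D3:**
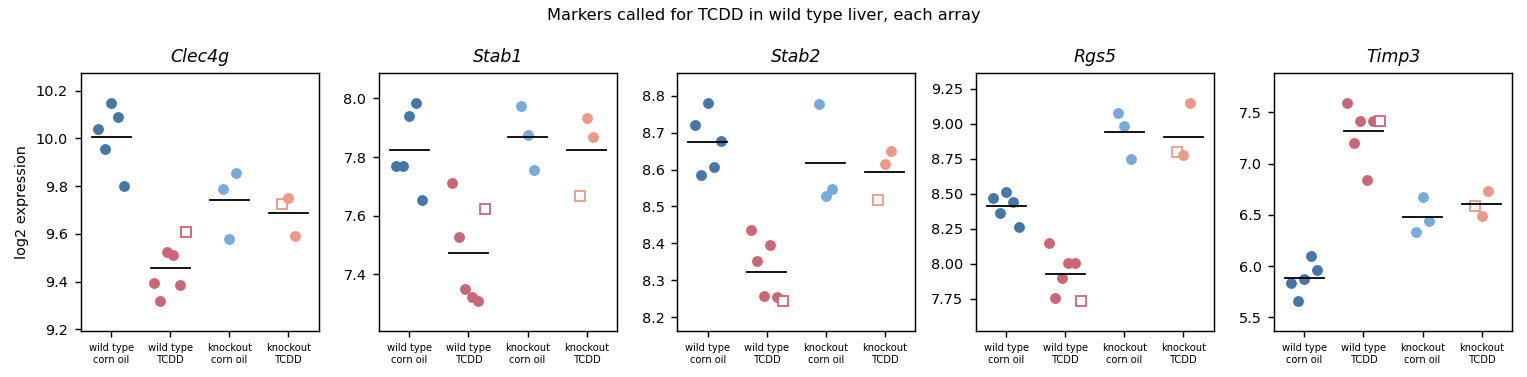
Levels (log2, y axis) of the 5 markers called for TCDD in wild type, 1 point per array in each of the 4 groups, with a horizontal line at each group mean and open squares for wild type TCDD replicate 6 and knockout TCDD replicate 1. Timp3 is higher in all 6 wild type TCDD arrays than in the other groups, whereas Clec4g, Stab2 and Rgs5 are lower there than in wild type controls and Stab1 overlaps.

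Hepatocyte markers moved in the same comparison: 5 of 9 fell with TCDD in wild type, where 2.56% of all genes fell. The differences of the 5 ran from -0.27 to -0.09. The mean level of the 9 ran from 13.67 to 13.79 with TCDD against 13.84 to 13.91 with corn oil. Of those 5, Apoa1, Fgb, Ahsg and Apoc3 had means of 15.2 to 15.7 with corn oil, near the highest value of the table (15.95), where a log2 difference may be compressed, so the sizes are not set against those of the endothelial genes. The mean of the endothelial list ran from 7.35 to 7.60 with TCDD against 7.64 to 7.70 with corn oil. That mean holds Clec4g, Stab1 and Stab2, with differences of -0.55, -0.35 and -0.35, and the uncalled Lyve1 at -0.74. Kdr, Mrc1 and Cdh5 had differences above 0, up to 0.18. The mean is therefore not a separate result and does not show a fall of the whole list. The part of hepatocytes or of cell proportions in the endothelial falls was not tested. The other 7 endothelial markers were not called for TCDD in wild type. Mrc1, the macrophage mannose receptor that sinusoidal endothelial cells also carry, read 9.95, 9.76, 9.93, 9.91 and 9.82 with corn oil and 9.87 to 10.07, with a median of 9.95, with TCDD in wild type, and was not called in any comparison. In knockout Mrc1 read 10.04, 9.77 and 9.95 with corn oil and 9.66, 9.96 and 9.94 with TCDD. Of the junction proteins, Pecam1 and Cdh5 were not called either, nor were the angiopoietin receptor Tek and the Fc receptor Fcgr2b on the probe set used for it. A pair of other Fcgr2b probe sets was called lower in knockout with TCDD, with differences of -0.55 and -0.42 against -0.25 on the one used here, so Fcgr2b is uncertain.

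Lyve1, a hyaluronan receptor of sinusoidal and lymphatic endothelium, differed most between genotypes among the markers. It read 5.15, 4.70, 4.91, 5.63 and 5.34 in wild type with corn oil and 3.98 to 4.66, with a median of 4.44, in wild type with TCDD. In knockout it read 7.26, 7.41 and 5.68 with corn oil and 6.25, 7.30 and 7.56 with TCDD. Every knockout array lay above every wild type array, and knockout corn oil replicate 3 lay just above the highest wild type control. Lyve1 was 3.11-fold higher in knockout with corn oil (1.64, SE 0.38, limma adjusted p = 0.0476) and 6.18-fold higher with TCDD (2.63, SE 0.36, limma adjusted p = 3.80e-04). The corn oil call was weak: it was lost without any 1 of 14 of the 17 arrays, with a range of 1.32 to 2.19, and the difference was 0.60 within scan day 2, which holds 1 knockout corn oil array (adjusted p = 1.0). The call with TCDD held without each array in turn (2.37 to 3.02), and a second Lyve1 probe set gave 2.0 (adjusted p = 0.0109). TCDD against corn oil in wild type gave -0.74 for Lyve1, with groups that did not overlap and an adjusted p of 0.336.

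Kdr encodes the main receptor for vascular endothelial growth factor. It read 6.86, 6.87, 6.83, 6.87 and 7.04 in wild type with corn oil, 6.85 to 7.37 with a median of 6.99 in wild type with TCDD, 6.85, 6.94 and 6.71 in knockout with corn oil and 6.56, 6.36 and 6.39 in knockout with TCDD. The knockout TCDD arrays were the lowest of the 17, and the other 3 groups overlapped. With TCDD, Kdr was 1.55-fold lower in knockout (-0.63, SE 0.12, limma adjusted p = 0.00364). The TCDD difference itself was 0.18 in wild type and -0.39 in knockout, and neither was called.

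A further 28 endothelial genes, from a list drawn up beside the members, gave 1 call for TCDD in wild type, where 6.32% of all genes were called. Wnt2, a signal that endothelial cells send to hepatocytes, rose by 1.89 (limma adjusted p = 7.46e-07), from a mean of 4.68 to 6.57, while its means in knockout were 4.21 and 4.30. The difference of the TCDD effects was called for Wnt2 at -1.81. With TCDD in both genotypes 6 of the 28 were called, 4 higher in knockout and 2 lower, where 8.98% of all genes were called. Among the 6 were Wnt2 at -2.27, Gpr182, an orphan receptor of endothelium, at 0.91 and the netrin Ntn4 at 0.87.

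Timp3, on chromosome 10, gave the largest change of any member with TCDD. It encodes an inhibitor of matrix metalloproteinases that binds to the extracellular matrix, and stellate cells are one of its sources in liver. It read 5.83, 5.66, 5.87, 6.10 and 5.96 in wild type with corn oil and 6.84 to 7.59, with a median of 7.41, in wild type with TCDD. In knockout it read 6.33, 6.67 and 6.44 with corn oil and 6.59, 6.49 and 6.73 with TCDD. The wild type groups were far apart, the knockout groups overlapped, and the knockout arrays lay between the wild type groups. Timp3 rose 2.69-fold in wild type (1.43, SE 0.12, limma adjusted p = 4.07e-06), and in knockout the difference was 0.12 with a 95% confidence interval of -0.22 to 0.46. The difference of the effects was called (-1.31, SE 0.20, limma adjusted p = 0.00388). Both calls held without each array in turn. Within scan day 2 the rise in wild type was 1.40 (adjusted p = 0.0148), while the difference of the effects was -1.30 and was not called (adjusted p = 0.249). With corn oil Timp3 was 0.60 higher in knockout, with groups that did not overlap and an adjusted p of 0.0581, and with TCDD it was lower in knockout (-0.71, limma adjusted p = 0.0056), though not called within scan day 2 (-0.73, adjusted p = 0.14).

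Of the 3 other Timp3 probe sets, 1 rose by 1.32 in wild type (adjusted p = 0.0022), and the others, with mean levels of 4.13 and 2.89, gave 0.33 and 0.10 and were not called. With all probe sets of the gene averaged, the rise was 0.80 (limma adjusted p = 3.80e-04), and the difference of the TCDD effects was -0.75 with an adjusted p of 0.0625.

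The bases before the start of Timp3 are shown with those of Clec4g and Stab2, which fell, because the receptor's DNA site has a known core, written GCGTG on one strand and read as CACGC when searched for on the other, and because these 3 had the smallest adjusted p among the members for TCDD in wild type. The sequences are the 250 bases before the RefSeq start, 5′ to 3′ on the gene's strand in the mouse build GRCm38.p6, at chr10:86300162-86300411 on the plus strand for Timp3, chr8:3720652-3720901 on the minus strand for Clec4g and chr10:87007943-87008192 on the minus strand for Stab2. Capitals mark the core.
Timp3: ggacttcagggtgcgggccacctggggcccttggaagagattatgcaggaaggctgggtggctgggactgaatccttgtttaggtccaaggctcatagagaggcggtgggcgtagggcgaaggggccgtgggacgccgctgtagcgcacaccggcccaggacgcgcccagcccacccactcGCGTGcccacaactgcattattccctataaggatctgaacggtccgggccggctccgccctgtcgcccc
Clec4g: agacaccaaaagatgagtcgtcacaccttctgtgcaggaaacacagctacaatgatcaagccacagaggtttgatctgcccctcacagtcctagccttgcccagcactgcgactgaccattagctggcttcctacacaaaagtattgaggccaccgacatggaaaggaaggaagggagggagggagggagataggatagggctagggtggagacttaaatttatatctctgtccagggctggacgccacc
Stab2: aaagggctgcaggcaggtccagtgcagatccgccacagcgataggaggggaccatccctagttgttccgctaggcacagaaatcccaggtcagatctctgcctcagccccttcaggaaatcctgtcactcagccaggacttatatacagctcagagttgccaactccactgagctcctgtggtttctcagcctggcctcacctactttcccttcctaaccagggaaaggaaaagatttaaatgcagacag
The Timp3 core begins 69 bases before the start, and its flanking letters also match the longer form TNGCGTG, which contains the core. RefSeq promoters were found for 26 members. The core stood in 5 of them, Kdr, Reln, Timp1, Timp3 and Cd79a, and in 28.2% of 32851 promoters of the same length. The longer form stood in 1 of the 26, Timp3, and in 4.1% of all promoters. A match of letters describes the sequence and does not show that the receptor binds there.

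Rgs5, a regulator of G protein signalling found in pericytes and stellate cells, fell with TCDD in wild type and was higher in knockout with either treatment. It read 8.47, 8.37, 8.51, 8.44 and 8.26 in wild type with corn oil and 7.73 to 8.15, with a median of 7.95, in wild type with TCDD. In knockout it read 9.08, 8.99 and 8.75 with corn oil and 8.80, 8.78 and 9.15 with TCDD. The order of the groups was without overlap except between the knockout groups. Rgs5 fell 1.40-fold with TCDD in wild type (-0.48, SE 0.09, limma adjusted p = 0.00524), and in knockout the difference was -0.03. It was higher in knockout by 0.53 with corn oil (limma adjusted p = 0.0256) and by 0.98 with TCDD (limma adjusted p = 4.06e-05). The corn oil call was lost without any 1 of 4 arrays and within either scan day, where it was 0.56 and 0.31. Of the other Rgs5 probe sets, those with mean levels of 6.60, 4.44 and 3.57 gave -0.08, 0.50 and 0.00 with corn oil, none called, and the mean of all 4 gave 0.24 (adjusted p = 0.623). The other 3 Rgs5 probe sets also gave differences below 0 with TCDD in wild type, from -0.14 to -0.54, with none called, and the mean of all 4 gave -0.37 with an adjusted p of 0.0593.

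The fibre-forming genes of activated stellate cells and fibroblasts did not pass the test with TCDD in either genotype, and differed between genotypes with TCDD. Col1a2, a chain of type I collagen, read 6.51, 6.44, 6.48, 6.68 and 6.97 in wild type with corn oil and 6.30 to 6.66, with a median of 6.40, in wild type with TCDD. In knockout it read 6.87, 6.72 and 6.69 with corn oil and 7.11, 7.0 and 7.42 with TCDD, above all other arrays. With TCDD, Col1a2 was 1.65-fold higher in knockout (0.72, SE 0.12, limma adjusted p = 0.00194), and it held without each array in turn and within scan day 2. The other Col1a2 probe sets, with mean levels of 2.85 and 2.56, gave 0.02 and -0.03 and were not called, so the mean of all 3 was 0.24 (1.18-fold, limma adjusted p = 0.00649). The TCDD differences of Col1a2 were -0.16 in wild type and 0.42 in knockout, and the difference between them had an adjusted p of 0.215.

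Col3a1, the chain of type III collagen, read 8.72, 8.25, 8.58, 8.98 and 9.27 in wild type with corn oil, 8.16 to 8.94 with a median of 8.32 in wild type with TCDD, 8.98, 8.90 and 8.79 in knockout with corn oil and 9.39, 9.05 and 9.41 in knockout with TCDD. With TCDD it was 1.85-fold higher in knockout (0.89, limma adjusted p = 0.0146), and the groups given TCDD did not overlap. Col1a1, the other chain of type I collagen, read 5.31, 5.13, 5.15, 5.32 and 5.80 in wild type with corn oil, 5.16 to 5.54 with a median of 5.30 in wild type with TCDD, 5.39, 5.38 and 5.53 in knockout with corn oil and 6.38, 5.51 and 5.87 in knockout with TCDD. The highest array was knockout TCDD replicate 1, one of those that stood apart. Without it the difference of Col1a1 with TCDD fell from 0.60 (limma adjusted p = 0.0486) to 0.37 (0.251), and that of Col3a1 went from 0.89 to 0.84 (adjusted p = 0.0679). The Col3a1 call was also lost without knockout TCDD replicate 3 (adjusted p = 0.0808). The Col1a1 call was lost without any 1 of 14 arrays. In wild type corn oil replicate 5 all 3 collagens were at their highest of the group, and in replicate 2 at their lowest.

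Pdgfrb, the receptor for platelet-derived growth factor that marks stellate cells and pericytes, read 6.10, 6.09, 5.66, 6.39 and 6.16 in wild type with corn oil, 5.12 to 5.97 with a median of 5.58 in wild type with TCDD, 6.02, 6.11 and 6.27 in knockout with corn oil and 6.80, 6.05 and 6.80 in knockout with TCDD. The TCDD groups of the genotypes did not overlap, although knockout replicate 2 came close to the highest wild type array. Pdgfrb was 1.98-fold higher in knockout with TCDD (0.99, SE 0.20, limma adjusted p = 0.00834), and 0.86 without knockout TCDD replicate 1 (adjusted p = 0.0552). The call was also lost without knockout TCDD replicate 3 (adjusted p = 0.0621) and within scan day 2 (0.86, adjusted p = 0.361). Its TCDD difference in wild type was -0.51, with an adjusted p of 0.158.

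Reln, a secreted glycoprotein used as a marker of stellate cells, went the other way. It read 9.40, 9.25, 9.48, 9.52 and 9.87 in wild type with corn oil, 9.70 to 10.35 with a median of 9.78 in wild type with TCDD, 9.26, 9.41 and 9.35 in knockout with corn oil and 9.37, 9.36 and 9.21 in knockout with TCDD. With TCDD, Reln was 1.48-fold lower in knockout (-0.57, SE 0.14, limma adjusted p = 0.0241), and the call was lost without any 1 of the 3 knockout TCDD arrays. Dcn, the matrix proteoglycan decorin, read 11.09, 10.64, 11.04, 11.17 and 11.22 in wild type with corn oil and 10.82 to 11.20, with a median of 10.98, in wild type with TCDD. In knockout it read 11.17, 11.28 and 11.28 with corn oil and 11.39, 11.24 and 11.16 with TCDD, and it was not called in any comparison. Acta2, the smooth muscle actin of activated stellate cells, was not called either, and its TCDD difference was 0.08 in wild type against 0.27 in knockout. Acta2 was, however, called between genotypes with TCDD within scan day 2 and with array weights.

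**Figure D4:**
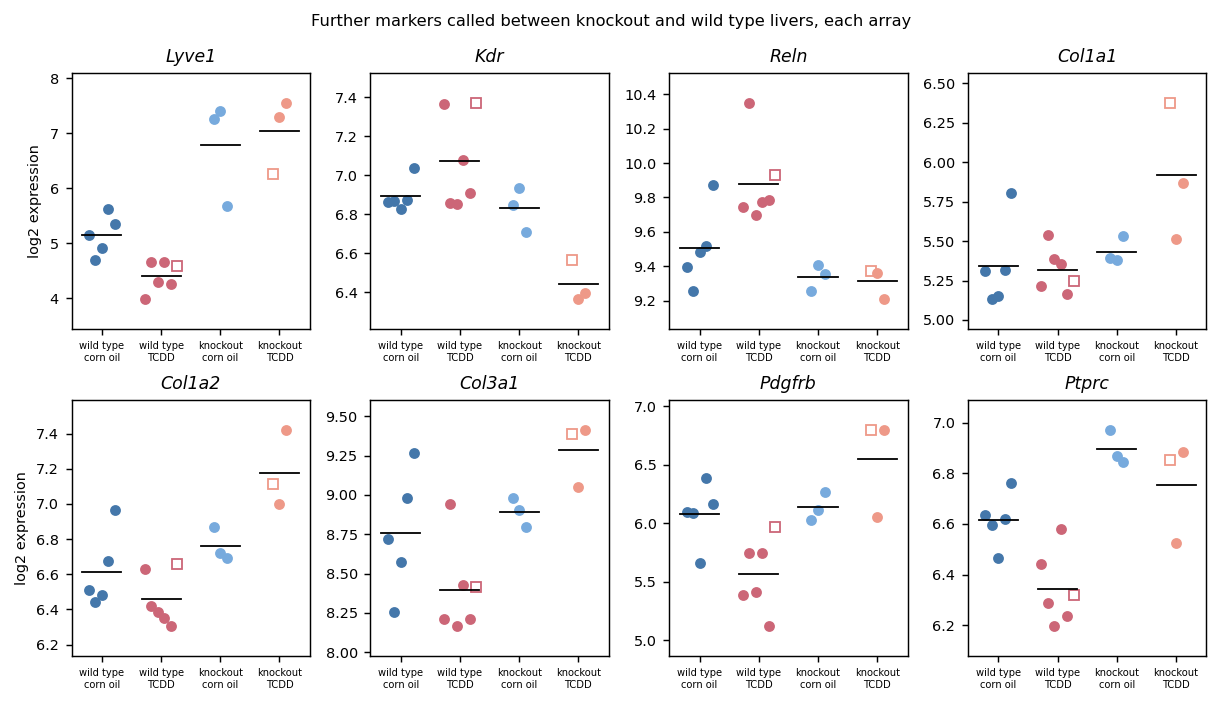
Levels (log2, y axis) of the further markers called between knockout and wild type, 1 point per array in each of the 4 groups, with a horizontal line at each group mean and open squares for wild type TCDD replicate 6 and knockout TCDD replicate 1. The knockout TCDD arrays are above the wild type TCDD arrays for Lyve1, Col1a2, Col3a1 and Pdgfrb, below them for Kdr and Reln, and overlap them for Col1a1 and Ptprc.

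Of a further 28 stellate cell and fibroblast genes, 0 were called by limma for TCDD in wild type, with 4 at an unadjusted p under 0.05, and 0 in knockout, with 1. With TCDD, 3 of the 28 were called higher in knockout, where 4.57% of all genes were. The 3 were Col5a2, a fibril collagen, by 1.61, Cygb, a globin of stellate cells, by 1.22 and Bgn, the proteoglycan biglycan, by 0.59. None of the 28 was called lower.

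The Kupffer cell markers showed no call in any of the 5 comparisons in the main fit. With array weights, Clec4f was called between genotypes with TCDD. For TCDD in wild type 0 of 7 were at an unadjusted p under 0.05, the differences ran from -0.14 to 0.05, and the widest 95% confidence interval, that of Cd68, reached -0.57 and 0.53, so changes within those bounds could have been missed. In knockout the differences ran from -0.32 to 0.23. Cd5l, a secreted protein of tissue macrophages, read 11.24, 10.64, 10.60, 11.04 and 10.44 in wild type with corn oil, 10.09 to 11.02 with a median of 10.78 in wild type with TCDD, 10.96, 10.93 and 10.81 in knockout with corn oil and 10.41, 10.65 and 10.67 in knockout with TCDD. Clec4f, a lectin restricted to Kupffer cells in mouse liver, read 9.93, 9.28, 9.64, 9.67 and 9.38 in wild type with corn oil, 9.07 to 9.71 with a median of 9.53 in wild type with TCDD, 9.24, 9.36 and 9.31 in knockout with corn oil and 8.59, 9.30 and 9.32 in knockout with TCDD. Adgre1, which encodes the macrophage antigen F4/80, read 8.20, 7.57, 7.42, 8.12 and 7.76, then 7.40 to 7.92 with a median of 7.67, in the wild type groups, and 7.94, 8.03 and 7.62, then 7.24, 7.87 and 8.32, in the knockout groups. All 4 groups of Clec4f and of Adgre1 overlapped.

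The Kupffer markers did vary together among arrays of 1 group. In wild type with corn oil, all 7 were higher in replicates 1 and 4 than in the other 3 arrays, an order that 4.56% of all genes showed and that 13 of 22 further macrophage genes shared. In knockout with TCDD, 5 of 7 were lowest in replicate 1, as were 11 of the 22 further genes and 27.2% of all genes. In wild type with TCDD, 5 of 7 were lowest in replicate 6, which stood apart, and 6 of 7 were highest in replicate 4. The share of all genes was not counted for that group. All these orders were picked out after the values were seen and carry no test. Without wild type TCDD replicate 6, no Kupffer marker was called for TCDD in wild type. Of the 22 further macrophage genes, 2 were called for TCDD in wild type, where 6.32% of all genes were called. Slc40a1, the iron exporter ferroportin, which hepatocytes also express, fell by 0.72, and Lgals3, galectin 3, rose by 1.12. With corn oil 3 of the 22 were called between genotypes, where 2.34% of all genes were called. Mpeg1, a pore-forming protein of macrophages, was 0.93 higher in knockout, Slc40a1 0.66 higher and the folate receptor Folr2 lower (-1.22). With TCDD, 2 of the 22, Mpeg1 and Slc40a1, were called, higher by 0.92 and 1.06, where 8.98% of all genes were called. Marco, a scavenger receptor, is uncertain: 1 probe set gave 0.08 and the other 0.96 between genotypes with TCDD, and neither was called.

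**Figure D5:**
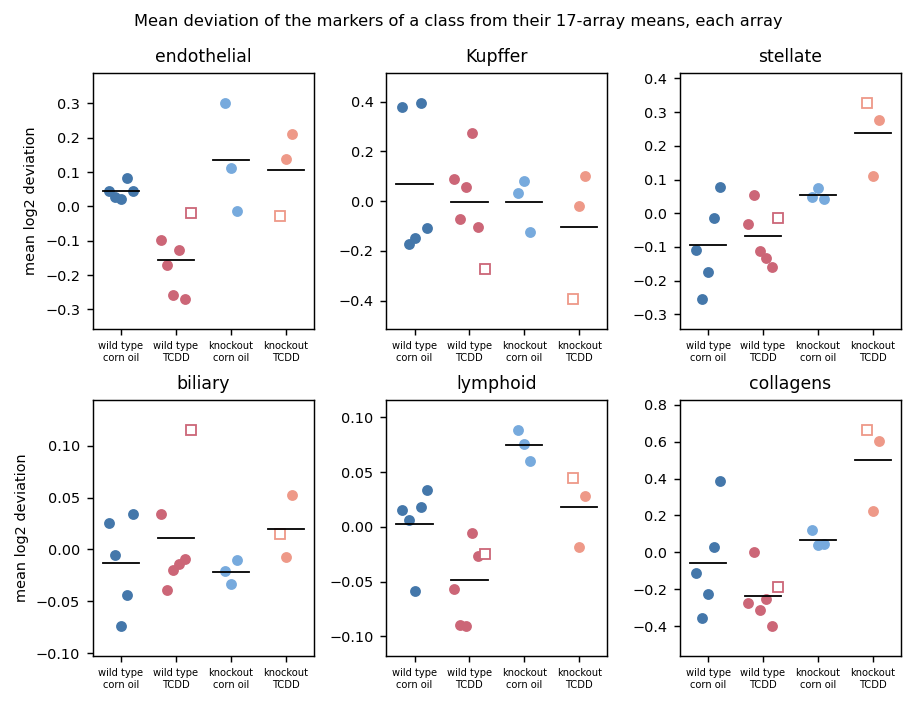
Mean of the markers of each class, and of the collagens alone, on each array (y axis, log2 units relative to each gene's mean over the 17 arrays), 1 point per array in each of the 4 groups, with a horizontal line at each group mean and open squares for wild type TCDD replicate 6 and knockout TCDD replicate 1. The endothelial means of wild type run from 0.021 to 0.084 with corn oil and from -0.271 to -0.018 with TCDD, while the Kupffer means spread from -0.171 to 0.396 within the wild type corn oil group. The endothelial means include Clec4g, Stab1 and Stab2, which fell, so they are not a separate result.

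Bile duct markers gave no call in any of the 5 comparisons. Epcam, an adhesion molecule of bile duct and progenitor cells, read 7.43, 7.45, 7.42, 7.38 and 7.27 in wild type with corn oil, 7.37 to 7.49 with a median of 7.42 in wild type with TCDD, 7.38, 7.41 and 7.36 in knockout with corn oil and 7.37, 7.37 and 7.03 in knockout with TCDD. Sox9, a transcription factor of bile duct cells, read 5.86, 5.70, 5.54, 5.59 and 5.97, then 5.68 to 6.06 with a median of 5.71, in the wild type groups, and 5.75, 5.63 and 5.80, then 5.75, 5.82 and 6.41, in the knockout groups. The highest Sox9 value and the lowest Epcam value were both on knockout TCDD replicate 3. The differences with TCDD in wild type lay between -0.01 and 0.08. The keratins Krt19 and Krt7, which define bile duct cells, read 2.39 to 2.49 and 2.45 to 2.64 over all arrays, near background. None of 15 further biliary genes was called by limma for TCDD in wild type, with 0 at an unadjusted p under 0.05.

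Among the lymphoid markers, Ptprc, which encodes the antigen CD45 of all leukocytes, was called between genotypes with TCDD. It read 6.64, 6.59, 6.47, 6.62 and 6.76 in wild type with corn oil, 6.20 to 6.58 with a median of 6.30 in wild type with TCDD, 6.97, 6.87 and 6.84 in knockout with corn oil and 6.85, 6.53 and 6.88 in knockout with TCDD. Knockout was above wild type without overlap with corn oil, and knockout TCDD replicate 2 overlapped the wild type arrays with TCDD. Ptprc was 1.33-fold higher in knockout with TCDD (0.41, SE 0.09, limma adjusted p = 0.0142), and the call was lost without knockout TCDD replicate 1 (0.36, adjusted p = 0.0814) or replicate 3. With TCDD in wild type Ptprc gave -0.27, with a limma adjusted p of 0.0778. It was called there in 4 of the alternatives: array weights, the filter on low level, and without knockout TCDD replicate 2 or wild type TCDD replicate 4. Cd8a, a co-receptor of cytotoxic T cells, was not called in any comparison, and Cd3e and Cd79a read near background. Of 25 further lymphoid genes, 19 were near background on all arrays, and 0 were called by limma for TCDD in wild type, with 0 at an unadjusted p under 0.05. Between genotypes with TCDD 1 of the 25 was called, Ccl5, a chemokine of T and other cells (1.46 higher in knockout). Of all genes 8.98% were called there.

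Markers of other cells that a liver sample can hold gave few calls, and many read near background. Of 9 neutrophil, 7 dendritic cell, 5 red cell, 5 mesothelial, 4 pancreatic acinar and 4 adipocyte genes, 0 were called by limma in any of the 5 comparisons, with at most 2 of a list at an unadjusted p under 0.05. In the same order, 6, 5, 2, 3, 3 and 3 of them were near background on all arrays, as were 3 of 4 platelet genes. A change in those genes could have been missed. Of 4 platelet genes, Pf4 was called for TCDD in wild type, where it rose by 0.31 and 3.75% of all genes rose. Between genotypes with TCDD, 4 of 9 hepatocyte markers were called higher in knockout, by 0.16 to 0.45, where 4.57% of all genes were. The part of hepatocytes in the genotype differences of the collagens and Lyve1 was not tested.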

How the data were processed

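The files hold deposited log2 values that the authors had already normalized and summarised to a single number for each probe set on each array. Tools named in the submitters' processing notes are RMA, GCRMA and affy 1.5.8, but whether RMA or GCRMA made the table is not given. They ran from 0.333 to 15.9, with array medians of 3.08 to 3.19. Since such normalization evens out the arrays, a shift common to most genes cannot be seen. Arrays have no read depth, and their number limits the precision. Groups and replicate numbers come from the sample titles, and scan days from the deposited scan settings.

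From these values, 64 control probe sets were dropped and the other 45037 entered the test whatever their level. Using limma 3.58.1 (lmFit, then eBayes; R 4.3.3), a mean per group was fitted over the 17 arrays, leaving 13 residual degrees of freedom, and tested two-sided with Benjamini-Hochberg adjustment within each of 5 contrasts: TCDD in each genotype, knockout minus wild type with each treatment, and the TCDD effect of knockout less that of wild type. Each gene is represented by 1 probe set, that of highest mean level among those that the array annotation gives to it alone. The members had 70 such probe sets. Where levels are given for all members called or leading their class, the rule was: called in at least 1 contrast, highest mean level of the class, or largest difference of the class for TCDD in wild type or for genotype with corn oil. Genes outside the members were named where called, at most 3 per list and contrast by size of difference. Intervals are 95% confidence intervals of the model. The members, lists and most alternatives were chosen with earlier results of these data known. The code was tested on simulated data. No 2 arrays held the same values.

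Promoter sequences are those of RefSeq for the build GRCm38.p6, matched by gene identifier for 26 members, and both strands were searched. The alternatives tried were quantile normalization, median centring, scan day as a block, each scan day alone, array weights, a filter on low level, eBayes with trend and robust, the mean of a gene's probe sets, the replicate number as a block, each array left out in turn, and, chosen after seeing the data, both arrays that stood apart left out.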

Additional observations from a re-analysis of the deposited data

Results flagged for a closer look

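Of the 36 markers, Timp3 alone had a TCDD effect that was called as different between genotypes with the settings of the report, by -1.31 (knockout minus wild type, SE 0.20, limma adjusted p = 0.00388).

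The other results listed here are arrays far from the rest of their group for 1 marker, found in 13 of the 86 sets of values examined. The sets came from the wild type groups only, because the knockout groups of 3 arrays are too small for this check. They include class means made from the same markers, so they are not independent. For independent sets chance gives about 1 in 20. On wild type TCDD replicate 6, the array that stood apart by its residual spread, the near-background genes Des (2.68), Timp1 (2.47), Krt19 (2.49) and Krt7 (2.55) were each the highest of their group. Wild type TCDD replicate 2 was highest for Reln at 10.35, against 9.70 to 9.93 on the other 5 arrays, and for Col3a1 at 8.94, against 8.16 to 8.43. Wild type corn oil replicate 5 was highest for Kdr at 7.04 and for Col1a1 at 5.80, against 5.13 to 5.32 for Col1a1 on the other 4. Pecam1 read 5.90 on wild type corn oil replicate 2, Acta2 was lowest at 6.74 on wild type corn oil replicate 4, and Cdh5 read 7.19 on wild type TCDD replicate 1. The near-background genes Cd3e and Cd79a read 3.04 on wild type TCDD replicate 3 and 2.75 on wild type TCDD replicate 5.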

How the results depend on the processing

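No called difference changed sign under any alternative run. For TCDD in wild type the 5 calls became 0 within scan day 1, which holds 1 control and 2 treated arrays. For genotype with corn oil the 2 calls became 0 with median centring, with scan day as a block, with the mean of all probe sets of a gene, with the replicate block, within scan day 1 and within scan day 2. For genotype with TCDD the 11 calls became 6 with the replicate block and 4 within scan day 2, of Lyve1, Rgs5, Acta2 and Col1a2. Array weights gave 11 higher and 4 lower there, adding Clec4g, Stab1, Clec4f and Acta2. For TCDD in wild type array weights gave 1 higher and 6 lower, adding Pdgfrb and Ptprc. The members' median for genotype with TCDD went from 0.011 to 0.117 with the filter on low level, which removes near-background members. For the difference of the TCDD effects the 1 call became 2 with median centring, 2 with scan day as a block, 4 with array weights, 2 with the filter on low level, 0 with the mean of all probe sets and 0 within scan day 2, and the median went from 0.055 to 0.129 with the filter. The other causes were not tested. Over all genes, array weights raised the calls from 425 to 773 for genotype with corn oil, from 1634 to 2788 for genotype with TCDD and from 297 to 645 for the difference of effects.

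Leaving out each array in turn gave 4 to 6 calls for TCDD in wild type, 0 each time for TCDD in knockout, 0 to 2 and 5 to 11 for genotype with corn oil and with TCDD, and 1 to 2 for the difference of effects. The members' medians ranged from -0.064 to -0.008, from -0.021 to 0.011, from -0.006 to 0.017, from -0.015 to 0.061 and from -0.010 to 0.092 in the same order. For genotype with corn oil, 0 calls remained without knockout corn oil replicate 1 or 2 or wild type corn oil replicate 2 or 5. The difference of effects reached 2 calls without knockout corn oil replicate 1 (Stab2), wild type corn oil replicate 5 or wild type TCDD replicate 6 (Clec4g).

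Pairing was checked on 14 pairs of arrays with the same number: their correlations ran from -0.269 to 0.0972, 0 were over 0.1 and 1 array correlated best with its own number. The numbers were therefore not used as pairs in the main fit. Low correlations of deviations from the means of such small groups cannot exclude a pairing. The replicate block gave 4 calls for TCDD in wild type, where Stab1 had an adjusted p of 0.0736. The depth of an array experiment is its signal over background, which limits the 6 near-background markers.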
